A study of Mus musculus with 17 samples.

Results

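Gm6300, Sox2ot, Gm853, Ctxn3 and BC021614 were among the genes that differed between the kidneys of db/db mice and of C57BL/6 mice. Each was close to silent in one genotype or changed very strongly in all diabetic mice. These 5 of the 22558 genes analysed were picked by symbol because their read counts separated the db/db mice from the wild-type mice with or without dapagliflozin. Their levels against the wild type are therefore given as a description, with no test, and tests are given only within the db/db genotype and for neighbouring or related genes.

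Whole kidneys of male mice were sequenced, with 1 library per mouse. Wild-type C57BL/6 mice formed the Ctrl group (n = 5). Untreated db/db mice on the BKS strain, which lack a working leptin receptor, formed the Case group (n = 6). Mice of the same stock given dapagliflozin, which blocks glucose uptake by SGLT2 in the proximal tubule, formed the Dapa group (n = 6), with a daily dose of 1 mg/kg. All mice were 8 weeks old at the start and were treated for 6 weeks, and the Ctrl and Case mice received saline instead of the drug. The diabetic mice differed from the Ctrl mice in the db mutation and in the strain on which it is carried (BKS against C57BL/6). Strain, leptin receptor and diabetes cannot be told apart in any comparison with Ctrl.

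The libraries held 13039535 to 17779635 counts. Mitochondrial genes took 17.9% to 20.4% of them in Ctrl, 19.8% to 27.3% in Case and 19.7% to 27.6% in Dapa, so that 5 of 6 Case and 4 of 6 Dapa mice lay above every Ctrl mouse, and the part of this shift in the members' levels was not tested. Of the 14582 genes tested between Case and Ctrl, 1895 had a q (p adjusted after Benjamini and Hochberg over all genes) under 0.05 by the quasi-likelihood test of edgeR (13.0%, with 6.09% higher and 6.91% lower). Of 14647 tested between Dapa and Ctrl, 4260 had (29.1%, with 14.2% higher and 14.9% lower). Both comparisons used the same Ctrl mice. Replicate 4 stood apart among the Ctrl mice, because it held the lowest level of Gm6300, Sox2ot, Gm853 and Ctxn3 and the highest of BC021614. The 12 proximal tubule markers summed to 2477 to 2910 FPKM per Ctrl mouse, 1596 to 2816 per Case mouse and 1724 to 2441 per Dapa mouse, so the kidney label was borne out by the main cell type of the organ.

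The members come from unrelated kinds of gene. Gm6300 is annotated as an unprocessed pseudogene, a duplicated gene copy that no longer encodes a full protein. Sox2ot is a long non-coding RNA whose gene spans that of the transcription factor Sox2. Gm853, now called Ldc1, encodes a relative of ornithine decarboxylase that removes the carboxyl group of leucine and is known from the kidney of male mice. Ctxn3 encodes cortexin 3, a small membrane protein found in brain and kidney. BC021614, now called Gstp3, belongs to the pi class of glutathione S-transferases, enzymes that couple glutathione to reactive compounds.

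Gm6300 lies on the plus strand of chromosome 3 (14363117 to 14377587, mm10), 103 kb before Slc7a12, the gene of an amino acid transporter that it resembles. Over 1396 aligned bases, the transcripts of Gm6300 and Slc7a12 were 75.7% identical. The closest ungapped 90 bases within an exon of each are shown because reads of such relatives could be exchanged, with the 8 bases that differ in capitals. The Gm6300 stretch lies at chr3:14363728-14363817 in exon 1, and the Slc7a12 stretch at chr3:14481309-14481398 in coding exon 1 (GRCm38, plus strand, GENCODE M21).
Gm6300: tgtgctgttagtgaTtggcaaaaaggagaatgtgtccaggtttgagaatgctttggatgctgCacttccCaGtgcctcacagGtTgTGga
Slc7a12: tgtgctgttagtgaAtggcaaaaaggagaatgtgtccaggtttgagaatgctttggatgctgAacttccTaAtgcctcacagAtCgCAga
The longest identical run in this pair is shorter than a 50-base stretch, and of the 1449 stretches of 50 bases in the Gm6300 transcript 0 occurred in a transcript of another gene. The same held for 0 of 2292 stretches in Gm853, 0 of 1604 in Ctxn3 and 0 of 944 in BC021614. In Sox2ot 450 of 11890 stretches (3.78%) were shared.

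Upstream sequence of Gm853 (Ldc1) and of BC021614 (Gstp3) is shown because these genes moved in opposite directions by genotype. The windows of 250 bases before the RefSeq start (GRCm38.p6, minus strand) were searched, but GENCODE M21 places the start farther upstream, so that the last 106 bases of the Gm853 window and the last 122 of the BC021614 window lie inside its gene. The 144 and 128 bases that precede both starts are given, from chr4:130222402-130222545 and chr19:4059570-4059697. No such sequence was used for the other 3 members. Capitals mark matches to the letters searched on either strand.
Gm853: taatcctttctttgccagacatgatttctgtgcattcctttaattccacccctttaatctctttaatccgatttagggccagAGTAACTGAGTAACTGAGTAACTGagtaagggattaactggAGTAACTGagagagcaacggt
BC021614: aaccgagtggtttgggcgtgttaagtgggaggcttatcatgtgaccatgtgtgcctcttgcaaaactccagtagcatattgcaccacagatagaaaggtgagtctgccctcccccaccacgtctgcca
Over the whole window, BC021614 held 1 TATA-like run (TATAA), in the stretch that is inside the GENCODE gene and not given, and 22.8% of 32851 promoters of this length held one. The Gm853 window held 4 copies of AGTAACTG, a repeat chosen after the sequence was seen and present in 0.691% of promoters. Neither held the core of the antioxidant response element (TGACNNNGC), which was found in 10.2% of promoters. The CCAAT box was also missing from both and found in 33.8% of promoters. A GC box, searched as GGGCGG, was missing from both and found in 32.7%. These matches describe the letters of the windows only.

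Gm6300, the pseudogene, was read in every Ctrl kidney and in none of the 12 db/db kidneys. Its counts were 341, 361, 565, 91 and 351 in Ctrl replicates 1 to 5 and 0 in each Case and Dapa mouse. Its level was 13.9 ± 6.73 FPKM in Ctrl (SD, n = 5), and the lowest Ctrl mouse, replicate 4, still had 3.59 FPKM. The Case mice gave 0 of 95030101 counts and the Dapa mice 0 of 87303259. Taken against a floor of 3 counts over the group, Gm6300 was at least 661-fold lower in Case and at least 607-fold lower in Dapa than the Ctrl mean. Over all db/db mice the bound was 1268-fold, and 327-fold against the lowest Ctrl mouse. These bounds cover counting error only.

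Sox2ot was also close to absent in db/db kidneys, although its Ctrl level was low. The counts were 17, 23, 24, 15 and 18 in the Ctrl mice, which is 0.0626 ± 0.0123 FPKM (SD, n = 5) over a table length of 18884 bases. In Case 4 mice had 0 and replicates 4 and 5 had 2 each (lowest 0, median 0, highest 2). In Dapa the lowest was 0, the median 0.5 and the highest 3, with 3 mice at 0. The groups did not overlap, and the fitted log2 fold change was -4.65 (SE 0.60) in Case and -4.05 (SE 0.57) in Dapa. It rested on 4 counts in all Case mice. Without Case replicate 4 it was -5.24, without Case replicate 5 -5.26 and, for Dapa, -4.70 without Dapa replicate 11. Every SE of a log2 fold change here is its size over the square root of edgeR's F value, not a fitted standard error. For a member against Ctrl, the SE draws on the comparison by which the members were chosen, and is no test. The Sox2ot gene lies on the plus strand of chromosome 3, from 34104270 to 34682619. Sox2 itself was not analysed here.

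Gm853, the leucine decarboxylase gene, fell strongly but stayed on in every db/db kidney. Its counts were 720, 433, 538, 288 and 434 in the Ctrl mice, or 11.1 ± 3.75 FPKM (SD, n = 5). In Case the lowest count was 8, the median 31.5 and the highest 54, and in Dapa they were 32, 53 and 94. The highest db/db mouse, Dapa replicate 7 with 2.39 FPKM, stayed below the lowest Ctrl mouse with 6.43 FPKM. The mean FPKM of Ctrl was 14.5 times that of Case and 7.46 times that of Dapa, with log2 fold changes of -3.94 (SE 0.35) and -3.02 (SE 0.30). The gene lies on the minus strand of chromosome 4 (130209109 to 130222401).

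Ctxn3, the cortexin gene, was present in every Ctrl kidney and low or absent in the db/db kidneys. The Ctrl counts were 191, 102, 170, 82 and 128, or 5.58 ± 1.91 FPKM (SD, n = 5). In Case the counts ran from 0 to 24 with a median of 4.5, and replicates 1 and 2 had 0. In Dapa they ran from 3 to 39 with a median of 11.5. The groups did not overlap, since the highest db/db level was 1.78 FPKM in Dapa replicate 7 and the lowest Ctrl level 3.30 FPKM. The log2 fold change was -4.02 (SE 0.65) in Case and -3.05 (SE 0.52) in Dapa, and without Case replicate 5 the first became -4.69. The gene lies on the plus strand of chromosome 18, from 57468486 to 57478134 in the deposited table.

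BC021614, the glutathione S-transferase gene, was the member that was on in db/db and close to absent in Ctrl. Its Ctrl counts were 0, 0, 2, 5 and 0. In Case the lowest was 8, the median 26.5 and the highest 106, the last in replicate 1. In Dapa the lowest was 12, the median 21 and the highest 29. Every db/db mouse was above every Ctrl mouse. The means were 0.0842 ± 0.132 FPKM in Ctrl (SD, n = 5), 2.53 ± 2.64 in Case (SD, n = 6) and 1.40 ± 0.407 in Dapa (SD, n = 6). The log2 fold change was 4.67 (SE 0.95) in Case and 3.81 (SE 0.64) in Dapa, and 5.92 and 5.06 without Ctrl replicate 4, which held most of the Ctrl reads. The ratio of mean FPKM of Case to Ctrl was 30.0, and ran from 18.1 without Case replicate 1 to 83.6 without Ctrl replicate 4. The gene lies on the minus strand of chromosome 19 (4057477 to 4059446 in the table).

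**Figure D1:**
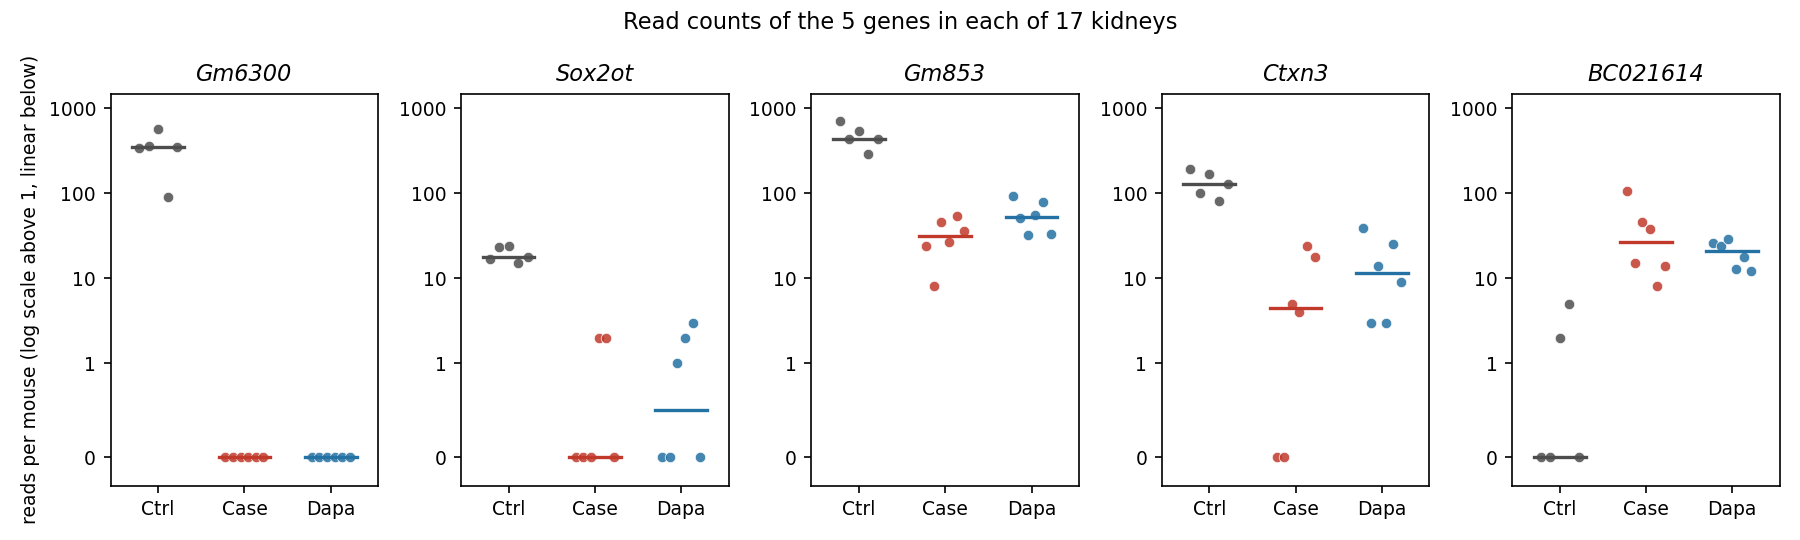
Read counts of each gene (vertical axis, reads per mouse, log scale above 1 and linear below) in the Ctrl, Case and Dapa mice, where a point is 1 mouse and a bar the group median. Gm6300 is at 0 in all 12 db/db mice, Sox2ot is at 0 to 3, Gm853 and Ctxn3 are lowered, and BC021614 is raised in every db/db mouse.

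In the kidney as a bulk sample, fewer cells of a type and less RNA per cell cannot be told apart. Some markers of nephron segments differed from Ctrl. Of the 12 proximal tubule markers tested, 0 rose and 3 fell between Case and Ctrl (median log2 fold change -0.38), where 6.91% of all genes fell, and 0 rose and 7 fell between Dapa and Ctrl (median -0.38), where 14.9% of all genes fell. Of the 8 distal nephron and collecting duct markers, 5 rose in Case and 6 in Dapa, with 0 that fell, beside 6.09% and 14.2% of all genes that rose. Their sum ran from 646 to 1754 FPKM per Ctrl mouse against 1188 to 3038 per Case mouse and 1576 to 2391 per Dapa mouse. The part of these shifts in the members' levels was not tested. The neuronal markers, listed because of Sox2ot and Ctxn3, summed to at most 2.00 FPKM in Ctrl, 3.12 in Case and 2.70 in Dapa, and Gap43, Snap25 and Syt1 stayed under 0.1 FPKM in every mouse. Of the 4 neuronal markers tested, 0 passed in Case and 1 rose in Dapa, where 14.2% of all genes rose. The adrenal markers summed to 2.16 to 3.88 FPKM in Ctrl, 3.37 to 8.65 in Case and 2.61 to 11.2 in Dapa, the adipocyte markers to 6.20 to 88.5, 3.22 to 21.6 and 5.26 to 29.2, and the pancreas markers to 30.0 to 43.7, 14.4 to 57.5 and 31.7 to 39.6. The adipocyte sum of 88.5 came from Ctrl replicate 3, in which Gm6300 and Sox2ot were highest, and its part in their level was not tested. Of the adrenal markers tested, 1 of 3 rose in Case and 1 in Dapa (6.09% and 14.2% of all genes), with Cyp11a1 and Cyp21a1 under 0.1 FPKM in every mouse, and of the adipocyte and pancreas markers 1 each was tested and 0 passed.

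Across the whole table, genes with at most 3 counts in every mouse of one genotype and at least 10 in every mouse of the other were rare. There were 2, Gm6300 and Sox2ot, both on chromosome 3 and both off in db/db, and 0 that were on in db/db. With the weaker condition that no db/db mouse overlapped a Ctrl mouse in CPM (the count scaled by the library total), 331 of 15060 genes were lower in db/db (2.2%) and 451 higher (2.99%), together 5.19%. All 5 members were among them, 4 lower and 1 higher, as their choice required. Ranked by the ratio between the edges of the groups, Gm6300 was at place 1 among the lower genes, Sox2ot at 4 (ratio 4.01), Gm853 at 8 (2.70) and Ctxn3 at 19 (1.85), and BC021614 at 11 among the higher genes (1.72). Genes outside the list also stood far apart, with Slc22a7, an organic anion transporter, at place 2 with a ratio of 22.5, and Ugt1a2, a glucuronosyltransferase, at place 1 of the higher genes with 6.02. The list is therefore not the complete set of strongly separated genes.

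**Figure D2:**
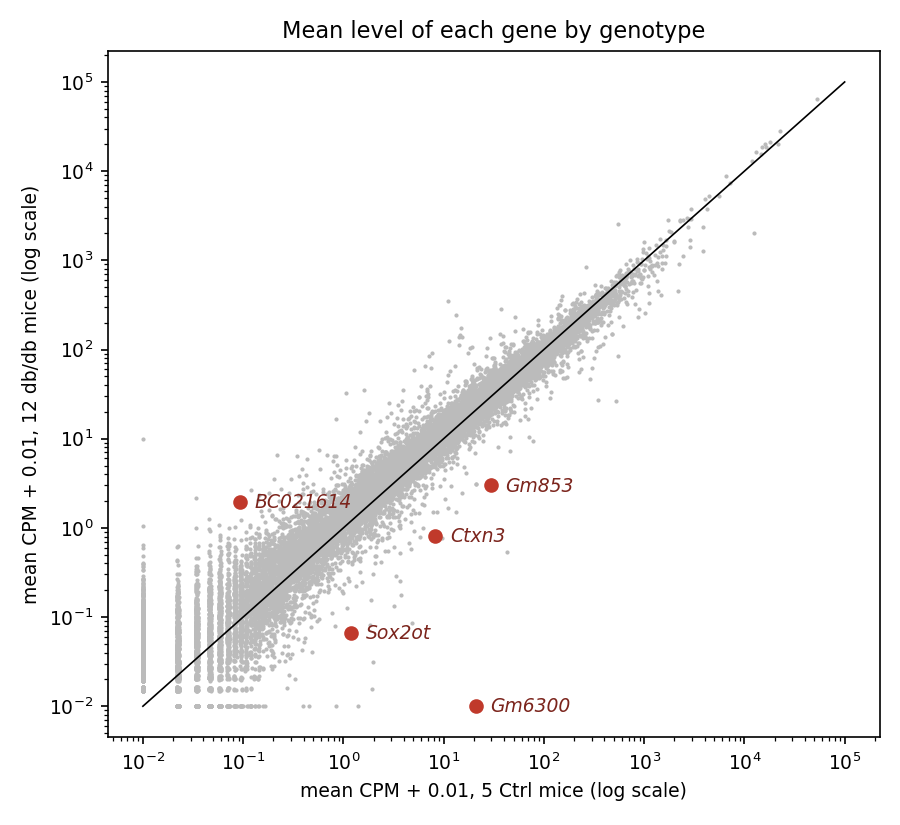
Mean CPM + 0.01 of every gene in the 12 db/db mice (vertical axis, log scale) against the 5 Ctrl mice (horizontal axis, log scale), with the line of equal level. Gm6300 lies at the bottom edge, Sox2ot, Ctxn3 and Gm853 below the line and BC021614 above it.

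The comparison within the db/db genotype set the mice given dapagliflozin beside the untreated mice. The members were chosen for a strong change against Ctrl in both of these groups, so a gene that the drug returned to the Ctrl level could not have been among them. The choice thus limited the differences that could be seen here, and a p that missed the threshold is no measure of the drug. Of 14573 genes tested, 0 had a q under 0.05 (0.0%), 1880 had an unadjusted p under 0.05, and DESeq2 called 202. Gm853 had a mean of 2.03 ± 1.00 CPM in Case and 3.95 ± 1.74 in Dapa (SD, n = 6 each), a difference of 1.92 CPM. The log2 fold change of Gm853 was 0.93 (SE 0.38), with q = 0.334 from edgeR's quasi-likelihood fit. The exact two-sided permutation test gave p = 0.0390 for this difference, unadjusted, and the ranges of the groups overlapped. With 1 mouse left out at a time, this p was above 0.05 in 7 of 12 settings, up to 0.0779.

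Ctxn3 was at 0.516 ± 0.617 CPM in Case and 1.08 ± 0.970 in Dapa (SD, n = 6 each; log2 fold change 0.98, SE 0.83, q = 0.635 from edgeR), with p = 0.260 from the exact permutation test. Without Case replicate 5 its log2 fold change was 1.64, with q = 0.480 from edgeR. BC021614 was at 2.49 ± 2.60 CPM in Case and 1.38 ± 0.402 in Dapa (log2 fold change -0.85, SE 0.55, q = 0.516 from edgeR), with p = 0.385 from the exact permutation test. Without Case replicate 1 that log2 fold change was -0.11, with q = 0.945 from edgeR. Sox2ot was too low to be tested by edgeR, and the exact permutation test of its 0.0421 CPM in Case and 0.0711 in Dapa gave p = 0.545. Gm6300 had no reads in either group.

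Lepr, the gene carrying the db mutation, did not lose reads in the db/db mice. Its FPKM was 0.464, 0.681, 0.813, 1.93 and 1.15 in the Ctrl mice. It ran from 0.659 to 5.40 in Case (median 2.44) and from 0.417 to 4.85 in Dapa (median 2.50), and the ranges overlapped. The log2 fold change of Lepr was 1.27 (SE 0.50, q = 0.110 from edgeR) in Case and 1.28 (SE 0.51, q = 0.0737 from edgeR) in Dapa. With 1 mouse left out at a time, Lepr was called in 1 of 11 settings in Case and in 2 of 11 in Dapa. Counts per gene do not show a splice change, so the label was not checked by the Lepr level. Leprot, which shares the start of Lepr, rose by 0.42 on the log2 scale in Case (SE 0.11, q = 0.0228) and by 0.41 in Dapa (SE 0.08, q = 0.00423), both from edgeR, and with 1 mouse left out at a time the Case call was kept in 8 of 11 settings.

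Within 5 Mb of Lepr, 47 genes were tested. In Case 9 rose and 6 fell, which is 31.9% against 13.0% of all genes, and in Dapa 10 rose and 14 fell, which is 51.1% against 29.1%. Neighbouring genes are not independent of each other, and these shares are descriptions. Gm853 lies on the same chromosome, but 28.4 Mb from Lepr. H2-Ea, a class II gene that is not functional in C57BL/6, was listed as H2-Ea-ps and read in all groups, at 16.5 to 47.1 FPKM in Ctrl, 12.3 to 326 in Case and 20.8 to 90.0 in Dapa, so it was not an on or off gene here. Its log2 fold change was 2.35 in Case (q = 0.0394 from edgeR, with the call kept in 3 of 11 settings that each left out 1 mouse) and 0.31 in Dapa (q = 0.576 from edgeR).

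Within 500 kb of a member the table held 86 genes. Of 65 tested between Case and Ctrl, 3 rose and 8 fell (16.9%, beside 13.0% of all genes), and of 66 tested between Dapa and Ctrl, 7 rose and 15 fell (33.3%, beside 29.1%). Slc7a12, next to Gm6300, was at 2.06 ± 1.08 FPKM in Ctrl (SD, n = 5), 5.31 ± 7.09 in Case (SD, n = 6) and 7.45 ± 7.18 in Dapa (SD, n = 6), with log2 fold changes of 1.27 (q = 0.320 from edgeR) and 1.75 (q = 0.0549 from edgeR). Single mice carried the Case mean, since the Case median of 1.75 FPKM was below the Ctrl median of 2.73. Without Case replicate 1 the Case mean was 2.68 FPKM. The Dapa median of 6.34 FPKM was above the Ctrl median, and the Dapa mean was 4.76 without Dapa replicate 8. No gene on the other side of Gm6300 was tested within this distance. Car3, a carbonic anhydrase gene 486 kb after Gm6300 and the one gene near it called in Case, fell by 1.78 there (q = 0.0492) and had -0.61 in Dapa (q = 0.291), from edgeR, and this call was kept in 2 of 11 settings that each left out 1 mouse.

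Ccdc39, a gene of motile cilia 260.0 kb before Sox2ot, rose by 1.33 in Case (q = 0.00638) and had 0.70 in Dapa (q = 0.0593), from edgeR. Car3 and Ccdc39 are named because of their values, outside the rule on neighbours. Next to Sox2ot, Dnajc19, which encodes a mitochondrial import protein, had a log2 fold change of -0.31 in Case (q = 0.235) and fell by 0.43 in Dapa (q = 0.0118), both from edgeR. Beside Gm853, Tinagl1 had 0.17 (q = 0.661) and 0.63 (q = 0.140), and Serinc2 had -0.10 (q = 0.765) and 0.38 (q = 0.226), from edgeR. Beside Ctxn3, Prrc1 had -0.09 (q = 0.539) and 0.10 (q = 0.353), and 4930511M06Rik, whose span overlaps Ctxn3, had -0.19 (q = 0.780) and -0.40 (q = 0.495), from edgeR. Slc12a2, the sodium, potassium and chloride cotransporter on its other side, fell by 0.40 in Case (q = 0.0108) and had 0.08 in Dapa (q = 0.729).

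Of the 65 genes within 500 kb that were tested in both comparisons, 7 passed in both with the same sign (10.8%, beside 10.6% of all genes), and the comparisons share their Ctrl mice. Gm43667, 48.8 kb before Sox2ot, fell by 0.65 in Case (q = 0.0210) and by 1.15 in Dapa (q = 0.00354). Col16a1, a collagen gene near Gm853, fell by 0.69 and 0.75 (q = 0.00794 and 0.00132), whereas Fabp3, the heart type fatty acid binding protein on the other side of Gm853, rose by 0.73 and 0.55 (q = 0.00565 and 0.0196). The other 4 lay 51.7 to 85.4 kb before BC021614 in the order of the chromosome, and fell while BC021614 was higher. Aldh3b2, which lies within this stretch, had 0.06 in Dapa (q = 0.966) and was not tested in Case.

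Acy3, an aminoacylase of the proximal tubule, was the most abundant of these 4, at 684 ± 130 FPKM in Ctrl (SD, n = 5), 158 ± 67.8 in Case (SD, n = 6) and 186 ± 62.8 in Dapa (SD, n = 6). It fell by 2.20 on the log2 scale in Case (SE 0.27, q = 0.000522) and by 2.00 in Dapa (SE 0.22, q = 0.000181), without overlap with Ctrl. Tbx10, a T-box transcription factor gene, fell by 2.50 and 1.46 (q = 0.0174 and 0.0371), Aldh3b3, an aldehyde dehydrogenase gene, by 0.95 and 1.80 (q = 0.0455 and 0.00130), and Nudt8 by 0.33 and 0.38 (q = 0.0400 and 0.0284). With 1 mouse left out at a time, Acy3 was called in all 11 settings of both comparisons, Tbx10 in 11 in Case and 3 in Dapa, Aldh3b3 in 3 and 11, and Nudt8 in 4 and 8. On the other side of BC021614, Cdk2ap2, the nearest tested gene, had -0.21 in Case (q = 0.405) and fell by 0.34 in Dapa (q = 0.0439, called in 3 of 11 such settings). The close relatives between these genes and BC021614 were not called with all mice. Gstp1 had log2 fold changes of -0.03 (q = 0.940) and -0.13 (q = 0.496), and Gstp2 had 0.39 (q = 0.648) and 0.37 (q = 0.645). In 1 of 11 such settings, without Dapa replicate 8, Gstp1 was called as lower in Dapa (q = 0.0229). All q values in this and the preceding paragraph are from edgeR, over all genes. Gstp1 was the main Gstp gene in every group, with a mean of 74.9 FPKM in Ctrl, 77.6 in Case and 73.6 in Dapa.

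**Figure D3:**
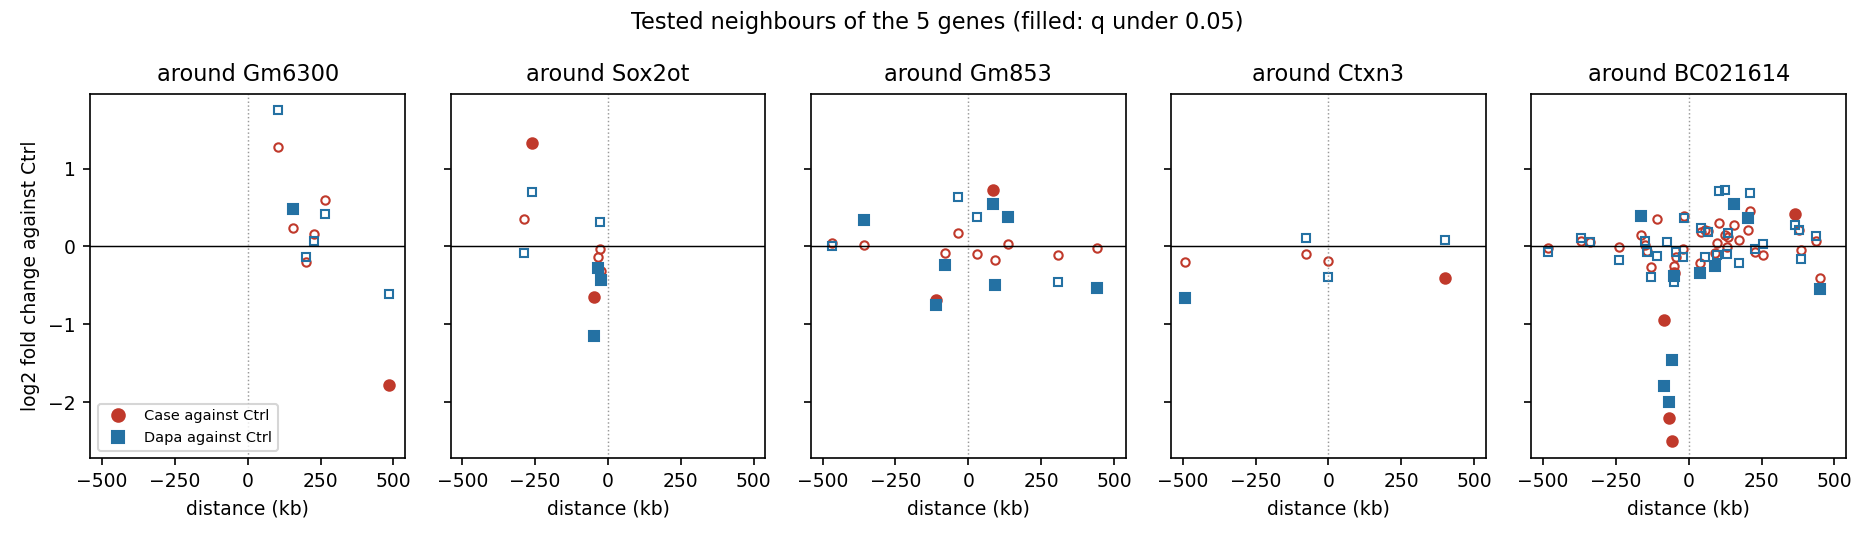
Log2 fold change against Ctrl (vertical axis) of tested genes within 500 kb of each member, by distance from the member in kb (horizontal axis), with circles for Case, squares for Dapa and filled symbols for q under 0.05. The largest falls stand on the left of BC021614, where Acy3, Tbx10 and Aldh3b3 lie.

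Related genes elsewhere in the genome, chosen after the annotation was read, were also given. Odc1, the ornithine decarboxylase that starts polyamine synthesis and a relative of Gm853, fell by 1.97 on the log2 scale in Case (SE 0.30, q = 0.00160 from edgeR) and by 1.62 in Dapa (SE 0.26, q = 0.00107 from edgeR). Its level was 187 ± 67.9 FPKM in Ctrl (SD, n = 5), 50.6 ± 17.1 in Case (SD, n = 6) and 66.2 ± 21.3 in Dapa (SD, n = 6). Azin2, an antizyme inhibitor of the same family, rose by 0.57 (SE 0.15, q = 0.0297 from edgeR) and by 0.74 (SE 0.14, q = 0.00249 from edgeR), with the first call kept in 5 of 11 settings that each left out 1 mouse. Azin1 had 0.05 (q = 0.790) and -0.23 (q = 0.185). Of the other cortexins, Ctxn1 was at 0.979 ± 0.432 FPKM in Ctrl (SD, n = 5), with log2 fold changes of 0.12 (q = 0.876) and 0.28 (q = 0.591) from edgeR, and Ctxn2 had 2 counts in Dapa replicate 12 and 0 in the other mice.

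**Figure D4:**
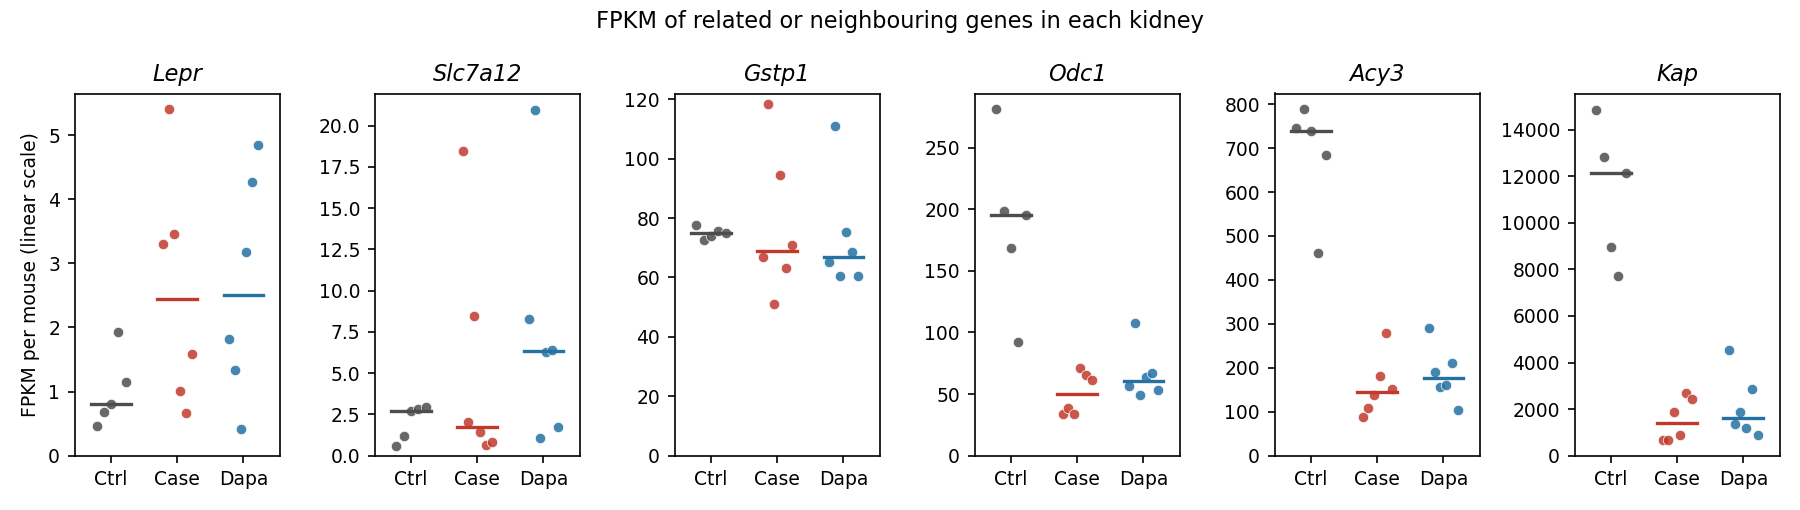
FPKM (vertical axis, linear scale) of Lepr, Slc7a12, Gstp1, Odc1, Acy3 and Kap in the Ctrl, Case and Dapa mice, where a point is 1 mouse and a bar the group median. Acy3 and Kap are lower in every db/db mouse than in every Ctrl mouse, Odc1 is lower in every Case mouse, and Lepr, Slc7a12 and Gstp1 overlap between the groups.

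The genes most like each member over the 17 mice were found by Pearson's r of log2(CPM + 1), which follows the difference between the genotypes for the most part and is given without a test. Gm6300 was most like Slc22a7 (r = 0.977), Sox2ot (0.977) and Sec14l3, a lipid-binding protein gene (0.976). Sox2ot was most like Gm6300 (0.977), Slc22a7 (0.975) and Acsm3, a medium-chain acyl-CoA synthetase gene (0.961). Spearman's rho, which uses ranks, was lower and ordered these genes differently. For Gm6300 it was 0.794 with Slc22a7, 0.832 with Sox2ot and 0.803 with Sec14l3, and for Sox2ot 0.670 with Slc22a7 and 0.815 with Acsm3. Slc22a7 was at 21.3 ± 8.47 FPKM in Ctrl (SD, n = 5), 0.281 ± 0.161 in Case (SD, n = 6) and 0.239 ± 0.188 in Dapa (SD, n = 6). Sec14l3 was at 0.995 ± 0.428 FPKM in Ctrl (SD, n = 5), 0.0281 ± 0.0226 in Case (SD, n = 6) and 0.0617 ± 0.0284 in Dapa (SD, n = 6).

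Gm853 was most like Hsd17b11, a hydroxysteroid dehydrogenase gene (r = 0.971), Acsm3 (0.968) and Glb1, the lysosomal beta-galactosidase (0.963), with a rho of 0.865, 0.853 and 0.873. After the group means were taken off, which could be done for Gm853 alone since the other members had a median under 10 counts in a group, it was most like Cndp2, a dipeptidase gene (0.841), Atp8b4 (0.834) and Wdr81 (0.829), with a rho of 0.797, 0.728 and 0.838. Ctxn3 was most like Acsm3 (0.967), Degs2, a sphingolipid desaturase gene (0.963), and Kap, the kidney androgen-regulated protein (0.963), with a rho of 0.933, 0.928 and 0.960. Acsm3 was at 44.4 ± 15.6 FPKM in Ctrl (SD, n = 5), 3.09 ± 0.797 in Case (SD, n = 6) and 3.81 ± 1.95 in Dapa (SD, n = 6). Kap was at 11298 ± 2919 FPKM in Ctrl (SD, n = 5), 1539 ± 927 in Case (SD, n = 6) and 2127 ± 1364 in Dapa (SD, n = 6).

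BC021614 was most like C3, the central complement component (r = 0.942), Apoc1, an apolipoprotein gene (0.886), and Gc, the vitamin D binding protein (0.885), with a rho of 0.919, 0.845 and 0.821. C3 was at 6.62 ± 2.04 FPKM in Ctrl (SD, n = 5), 70.5 ± 87.9 in Case (SD, n = 6) and 29.1 ± 14.2 in Dapa (SD, n = 6), with 246 FPKM in Case replicate 1 and a Case mean of 35.5 without it. Gc was at 5.79 ± 2.27 FPKM in Ctrl, 76.7 ± 72.1 in Case, or 48.6 without replicate 1, and 49.7 ± 28.0 in Dapa. These 3 proteins are also made by the liver, and the 6 liver markers summed to 25.6 to 103 FPKM in Ctrl, 63.6 to 158 in Case and 25.1 to 88.3 in Dapa, with 1 of 6 that rose in Case and 1 in Dapa, beside 6.09% and 14.2% of all genes. Case replicate 1 had the highest C3, Gc, liver sum and BC021614 of all mice, and the part of liver transcripts in the BC021614 level was not tested.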

How the data were processed

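RNA of 17 mouse kidneys was sequenced from stranded libraries. Per the submitters' processing notes and the study's methods, the authors used HISAT2 for alignment to mm10 and Stringtie for counting. The deposited read count per gene and the FPKM computed by the authors were used. The deposited table had 3 more entries, broken over 2 lines (Bmp4, Sirt1 and Tgfb1), which were left out.

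The members and lists were chosen with earlier results of these data known. Besides the members, the text names Lepr, Leprot, H2-Ea, the cortexins, the nearest tested genes, genes within 500 kb called in both comparisons with Ctrl, and the 3 most similar genes per member. Slc7a12 and relatives of Gm853 and BC021614 (Odc1, Azin1, Azin2, Gstp1 and Gstp2) were added from the annotation. Ugt1a2, Aldh3b2, Car3 and Ccdc39 were added after their values were seen. A further gene of this rule is not reported here. Counts were compared with edgeR 4.0.16 in R 4.3.3 (TMM, filterByExpr, quasi-likelihood test, Benjamini-Hochberg, q under 0.05), each fit on its own 2 groups. The fits were also run on simulated counts with the same spread for every gene. That setting is simpler than these data, and no result here rests on it. DESeq2 1.42.0 and limma 3.58.1 were alternatives. Exact permutation tests used scipy 1.17.1, and alignments blastn 2.17.0. P-values set a difference between groups against the spread between these mice.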

Additional observations from a re-analysis of the deposited data

Results flagged for a closer look

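Among 65 groups of values checked, 9 held a mouse whose gap to its nearest neighbour was wide for the range of the group. Chance alone gives about 1 in 20 for independent groups. These groups share mice, and Dapa replicate 8 gave several of the flags, so the count cannot be set against that rate. The genes of most similar pattern, such as C3, were not among the groups checked. BC021614 had 7.55 FPKM in Case replicate 1, with the next Case mouse at 2.86. Dapa replicate 8 was high in H2-Ea-ps (90.0 FPKM), Gstp1 (111), Odc1 (108) and Slc7a12 (20.9). Azin2 was high in Case replicate 4 (2.72 FPKM). Gstp2 was high in Ctrl replicate 4 (2.69 FPKM, next 0.619), and Ctxn2 had 0.149 FPKM in Dapa replicate 12 and 0 in the other Dapa mice. Nudt8 was low in Dapa replicate 12 (3.05 FPKM, next 4.05).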

How the results depend on the processing

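The direction of Sox2ot, Gm853, Ctxn3 and BC021614 against Ctrl was kept in every fit that held them, and BC021614 passed the filter in 6 of the 11 Case fits that left out a mouse. Gm6300 stayed at least 1074-fold to 1503-fold lower over all db/db mice when each mouse was left out. The fold change of the low genes shrank on the log2(FPKM + 1) scale, with Sox2ot at -0.08 in Case and in Dapa. In Case against Ctrl 699 genes were called with the replicate block, and 1002 (without Ctrl replicate 3) to 2154 with each mouse left out. The replicate numbers are shared labels only: deviations of same-numbered Ctrl and Case mice had correlations of -0.0867 to -0.0292, so the block was not read further. In Dapa against Case 202 genes were called by DESeq2, 5 with all groups in one fit and 0 to 7 with each mouse left out (7 without Dapa replicate 7). With each mouse left out, the Sox2ot difference between Dapa and Case ran from -0.00104 CPM (without Dapa replicate 11) to 0.0459 CPM.

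Within 250 kb of the members, 7 of 46 genes were called in Case (15.2%) and 18 of 47 in Dapa (38.3%), and within 1000 kb 15 of 115 in Case (13.0%) and 38 of 116 in Dapa (32.8%), beside 13.0% and 29.1% of all genes. With a fold above 2 added, 4 of 65 were called within 500 kb in Case (6.15%, beside 3.79% of all genes) and 4 of 66 in Dapa (6.06%, beside 7.18%). With each mouse left out, the calls within 500 kb numbered 6 of 66 in Case without Ctrl replicate 1 (9.09%, beside 7.87% of all genes) to 10 of 65 without Case replicate 5 (15.4%, beside 14.9%). In Dapa they numbered 11 of 67 without Ctrl replicate 3 (16.4%, beside 21.9%) to 21 of 65 without Dapa replicate 9 (32.3%, beside 28.0%). The count of on or off genes was 1 with 0 counts asked of the low genotype, 1 with at most 10 counts in the low and at least 50 in the high genotype, and 2 to 3 with each mouse left out.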
